A study of Mus musculus with 6 samples.

Results

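The sirtuins are 7 genes, Sirt1 to Sirt7, whose levels were followed in mouse gliomas and in cells cultured from them. They were taken as the rows of the 2 deposited expression tables whose gene name, split at commas, was 1 of the 7 symbols. All 7 were found, among 46951 rows for tumors and 46952 rows for cultures, and every one reached 1 FPKM (fragments scaled by transcript length and by the fragments of the library) in both tables. Sirt1 to Sirt6 each had a row of their own. Sirt7 shared its row with Mafg and Mir6936, so no level of Sirt7 alone could be given, and counts of sirtuins below are over the other 6.

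RNA-seq was done on 6 C57BL/6 mouse libraries, 1 per group, 3 of tumors and 3 of glioma-initiating cells (GICs, tumor cells able to seed a glioma). GICs had been placed in the brain of young or old mice, tumors were taken when the animals became symptomatic, and new GIC cultures were derived from them. The tumor groups, all of the line ms7080, were NMN-before (old mice given NMN before the tumor), old and young. The GIC groups, all labelled 7080X1, were NMN-before, old (titled NT) and young. NMN, usually short for nicotinamide mononucleotide, an NAD+ precursor, is not spelled out in the labels. The sources used here give no dose, route or timing for it, no ages, and no count of mice pooled in a library. All groups descend from 1 cell line, and every difference below compares 2 libraries with no replicate check, so no test between conditions was possible.

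Sirtuins are enzymes that remove acetyl and related acyl groups from lysines, spend 1 NAD+ for each group removed and release nicotinamide, which inhibits them. Because they consume NAD+, their activity is tied to the supply of this cofactor, which NMN feeds. In mammals SIRT1, SIRT6 and SIRT7 act in the nucleus, SIRT2 mainly in the cytosol, and SIRT3, SIRT4 and SIRT5 in mitochondria. In the brain Sirt2 is known as a gene of myelinating oligodendrocytes. An RNA level says nothing about enzyme activity, which was not measured.

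Promoter sequences are shown for the 3 members the results turn on, Sirt6, Sirt5 and Sirt2, to give the DNA at a RefSeq start of each gene. The Sirt5 window lies at the start of the gene, upstream of the span of its row in the tables, which begins 5214 bases downstream of the GENCODE gene start, so it is not the start of the RNA measured there. They are RefSeq windows on GRCm38.p6, from 250 bases before to 50 bases after the start, written 5′ to 3′ on the strand of the gene. The windows are chr10:81627517-81627816 (minus strand) for Sirt6, chr13:43365285-43365584 (plus strand) for Sirt5 and chr7:28766502-28766801 (plus strand) for Sirt2. Capitals mark matches, on either strand, to the letters of the NRF1 motif (GCGCA followed at once by its reverse complement TGCGC), the CCAAT box (CCAAT) or the GC box (GGGCGG, which reads CCGCCC on the other strand).
Sirt6: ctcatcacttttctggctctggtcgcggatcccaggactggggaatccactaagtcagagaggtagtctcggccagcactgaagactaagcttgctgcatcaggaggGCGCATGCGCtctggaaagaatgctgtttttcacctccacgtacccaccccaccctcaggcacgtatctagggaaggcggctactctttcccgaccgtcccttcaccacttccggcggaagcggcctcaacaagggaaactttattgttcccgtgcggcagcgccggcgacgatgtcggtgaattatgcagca
Sirt5: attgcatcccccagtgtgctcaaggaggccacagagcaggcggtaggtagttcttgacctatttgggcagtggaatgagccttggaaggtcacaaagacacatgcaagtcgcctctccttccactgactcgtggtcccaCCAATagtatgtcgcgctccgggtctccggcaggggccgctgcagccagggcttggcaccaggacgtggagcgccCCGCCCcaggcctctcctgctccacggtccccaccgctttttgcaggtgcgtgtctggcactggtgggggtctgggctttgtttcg
Sirt2: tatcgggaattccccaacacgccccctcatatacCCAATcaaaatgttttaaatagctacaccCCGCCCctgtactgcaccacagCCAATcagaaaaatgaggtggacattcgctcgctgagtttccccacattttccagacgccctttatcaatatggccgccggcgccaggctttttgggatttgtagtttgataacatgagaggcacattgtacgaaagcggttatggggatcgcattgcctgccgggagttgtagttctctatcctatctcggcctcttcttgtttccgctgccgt
The Sirt6 window held 1 NRF1 match, the Sirt5 window 1 CCAAT box and 1 GC box, and the Sirt2 window 2 CCAAT boxes and 1 GC box. No match in these windows overlapped another. Of 32851 RefSeq promoters of the same length, 0.971% held the NRF1 letters, 37.4% CCAAT and 35.7% GGGCGG. The E-box (CACGTG, in 7.15% of all promoters) and the TATA box (TATAAA, in 13.6%) were not found in the 3 windows. All 7 sirtuins had a promoter in the table, 9 windows in all, with 15 to 47 CpG dinucleotides each against a median of 7 over all promoters. Among the 9, only the Sirt6 window shown held the NRF1 letters; another Sirt6 window, chr10:81627273-81627572, held 1 GC box instead. These matches describe the letters only.

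Depth ranged over the libraries between 9.68 and 18.8 M fragments (M for mega). It was recovered from weakly expressed genes that have 1 annotated transcript, 96.2% to 97.5% of whose FPKM came out as a whole number of fragments, with a tolerance of 0.05 fragment. The tumors carried markers of host brain cells, with summed neuron markers of 554, 255 and 209 FPKM in the NMN-before, old and young tumors, and summed microglia markers of 367, 397 and 271 FPKM. In NMN-before, old and young GICs the neuron sums were 8.49, 11.2 and 8.85 FPKM and the microglia sums 8.36, 7.22 and 10.8 FPKM. Leukocyte markers summed to 0.22, 0.136 and 0.138 FPKM in these cultures, and to 3.68, 6.61 and 4.86 FPKM in the matching tumors. Glioma-initiating cell markers (among them Sox2 and Nes) summed to 514, 438 and 362 FPKM in NMN-before, old and young GICs. Olig2, also used as an oligodendrocyte precursor marker, made up 254, 136 and 108 FPKM of the latter sums. Of the 6 glioma-initiating cell markers, 2 were higher and 4 lower in NMN-before than in old GICs. In bulk RNA, fewer cells of a type and less RNA per cell cannot be told apart. The 95% counting intervals given below use the shortest GENCODE transcript of each gene, which gives the fewest fragments and the widest interval, except for Sirt5, whose row spans a single transcript of 1367 bases that was used instead. The intervals cover counting error only, not the spread between animals or cultures.

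Sirt2 was the highest of the 6 sirtuins with a row of their own in every library, per length of transcript, and made up 73.4%, 75.3% and 83.4% of their summed FPKM in the NMN-before, old and young tumors. In GICs its share was 41.8%, 53.6% and 58.4% in NMN-before, old and young cells. The row that holds Sirt7 with Mafg and Mir6936 was above Sirt2 in all 3 GIC cultures, and its Sirt7 part is not known. Without Sirt2, the other 5 summed to 52.2, 54.3 and 56.6 FPKM in the NMN-before, old and young tumors, and to 42.95, 38.6 and 35.6 FPKM in the matching GICs. In all 3 tumors the order of levels was Sirt2, Sirt4, Sirt3, Sirt6, Sirt5, Sirt1. The intervals of Sirt2 and Sirt4 did not overlap in any tumor, those of Sirt4 and Sirt3 did not overlap in the young tumor, and those of Sirt3 and Sirt6 did not overlap in the NMN-before tumor. The intervals of the other neighbours in the tumor order overlapped, which does not show that their levels were equal. In GICs the order below Sirt2 varied. Sirt1 came next in old and young cells, and Sirt3 came next in NMN-before cells. The intervals of neighbours among the middle genes overlapped. The lowest was Sirt5 in NMN-before and old GICs and Sirt6 in young GICs, each with an interval apart from that of the gene above it.

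**Figure D1:**
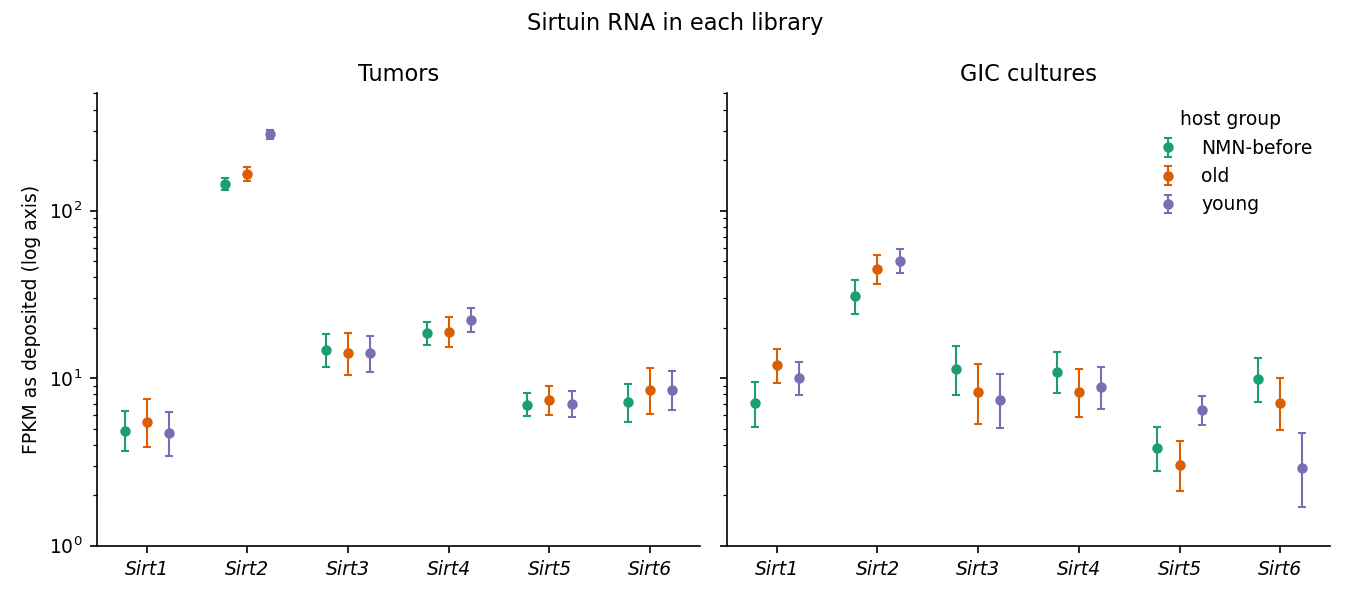
FPKM of the 6 sirtuins with a row of their own (log axis) in the tumors and in the GIC cultures, with the NMN-before, old and young library from left to right at each gene and bars for the 95% counting interval. Sirt2 stands above the others in all 6 libraries, and the 3 tumors keep 1 order of genes.

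**Figure D2:**
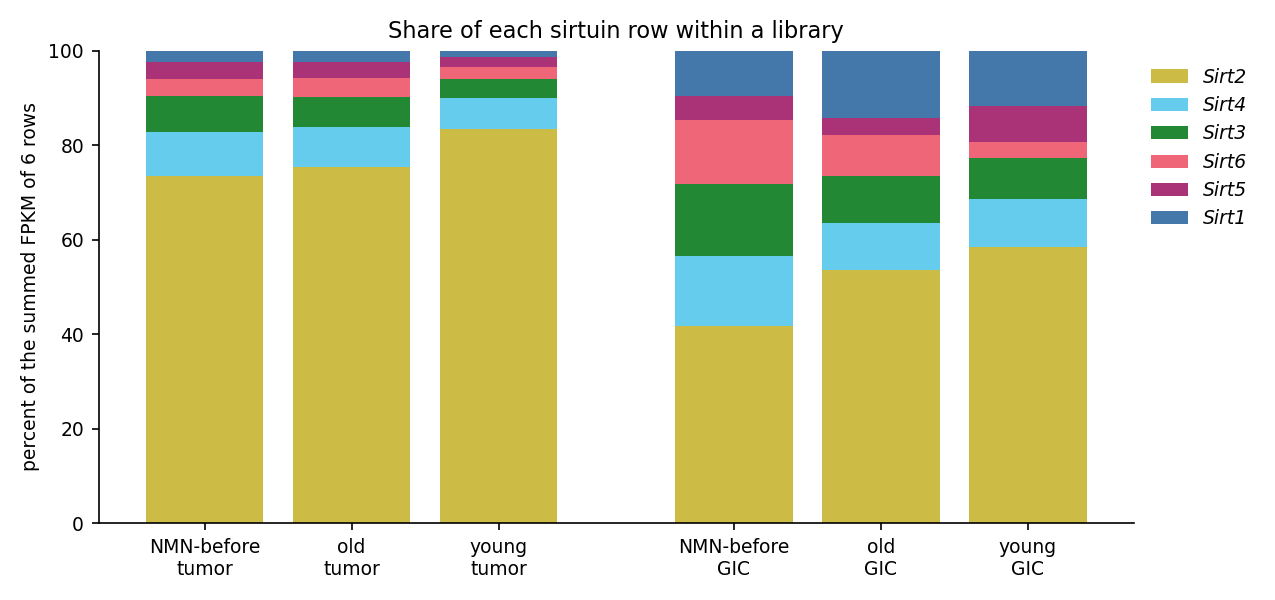
Share of the summed FPKM of the 6 sirtuins taken by each gene (percent), in the NMN-before, old and young tumor and GIC libraries. Sirt2 takes 73.4% to 83.4% in tumors and 41.8% to 58.4% in GICs.

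In tumors, Sirt2 was the member furthest apart from the young library. For NMN-before against old, Sirt6 was slightly further apart, at a log2 difference of -0.21 with an interval that held 1, than Sirt2 at -0.20. The deacetylase SIRT2 acts on tubulin among other cytosolic proteins. Its gene, ENSMUSG00000015149.14, lies on GRCm38 at chr7:28766735-28788661 on the plus strand. Sirt2 was at 144 FPKM in the NMN-before tumor, 166 FPKM in the old tumor and 285 FPKM in the young tumor. The young tumor was the high library and the other 2 lay close together. The ratio of the old to the young tumor was 0.580 (95% counting interval 0.516 to 0.652), a log2 difference of -0.78 in FPKM plus 1, and 1.76% of the 14335 rows measured in tumors were as far or further lower. NMN-before to young gave a ratio of 0.507 (0.456 to 0.562) and a log2 difference of -0.98, with 1.03% of rows as far or further lower. NMN-before to old gave 0.873 (0.768 to 0.992).

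No sirtuin was 2-fold apart between tumors, taking as 2-fold any log2 difference at or beyond 1 in either direction. The count was 0 of 6 for old against young, where 2.6% of all rows were that far apart, 0 of 6 for NMN-before against old, where 3.11% were, and 0 of 6 for NMN-before against young, where 3.77% were. The median log2 difference of the 6 was 0.00 for old minus young (all rows -0.01), -0.11 for NMN-before minus old (all rows 0.01) and -0.11 for NMN-before minus young (all rows -0.01). Of the 6, 3 were higher and 3 lower in the old than in the young tumor, 1 was higher and 5 lower in the NMN-before than in the old tumor, and 2 were higher and 4 lower in the NMN-before than in the young tumor. These comparisons share libraries. Sirt2, which had the most fragments and hence the narrowest interval, was the 1 of 6 whose interval left out 1 in each of the 3 tumor comparisons. Over all measured rows that name 1 gene with a GENCODE transcript, the share whose interval left out 1 was 17% for old against young, 19.4% for NMN-before against old and 23.3% for NMN-before against young.

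The nuclear members were close across tumors. Sirt1 (chr10:63319005-63381704, minus strand), which deacetylates p53, FOXO factors and PGC-1α, was at 4.86, 5.47 and 4.69 FPKM in the NMN-before, old and young tumors. Sirt6 (chr10:81621785-81627797, minus strand), a histone H3 deacetylase of chromatin and DNA repair, was at 7.18, 8.49 and 8.47 FPKM. The 3 values of each gene lay within one another's counting intervals. The row of Mafg, a small Maf transcription factor, Mir6936 and Sirt7 (chr11:120618372-120625240 for Sirt7, minus strand), the nucleolar sirtuin, was at 55.7, 59.1 and 64.3 FPKM.

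Mitochondrial sirtuins also lay close together in tumors. Sirt3 (chr7:140863666-140882309, minus strand), the main deacetylase of the mitochondrial matrix, was at 14.7, 14.0 and 14.1 FPKM in the NMN-before, old and young tumors. Sirt4 (chr5:115478010-115484725, minus strand), which restrains glutamate dehydrogenase, was at 18.5, 18.9 and 22.3 FPKM. Sirt5 (chr13:43365496-43395203, plus strand), which removes succinyl and malonyl groups, was at 6.94, 7.39 and 7.02 FPKM. Sirt4 was highest in the young tumor, but the ratios of the NMN-before and of the old tumor to it, 0.829 (0.658 to 1.04) and 0.847 (0.649 to 1.10), had intervals that held 1.

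Oligodendrocyte markers were set beside Sirt2 because Sirt2 is a gene of these cells. Cnp, a myelin enzyme, was at 139, 193 and 346 FPKM in the NMN-before, old and young tumors, the same order of libraries as Sirt2. The ratio of Sirt2 to Cnp was 1.04, 0.860 and 0.825 in these tumors. Mobp, a myelin structural protein, had the opposite order, at 67.0, 54.1 and 24.6 FPKM in the NMN-before, old and young tumors. Mbp, myelin basic protein, was at 186, 224 and 246 FPKM, and Cldn11, a tight junction protein of myelin, at 22.9, 24.8 and 37.7 FPKM, both in the order of Sirt2. Over the 11 markers used, the summed FPKM was 448, 540.3 and 683 in the NMN-before, old and young tumors. Without Cnp, the other 10 summed to 309, 348 and 337 FPKM, with the old tumor highest. For old minus young, 6 of the 11 markers were higher and 5 lower (median log2 difference 0.19). For NMN-before minus old, 1 was higher and 10 lower (median -0.31), and for NMN-before minus young 5 were higher and 6 lower (median -0.40). The part of these cells in the Sirt2 values was not tested.

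**Figure D3:**
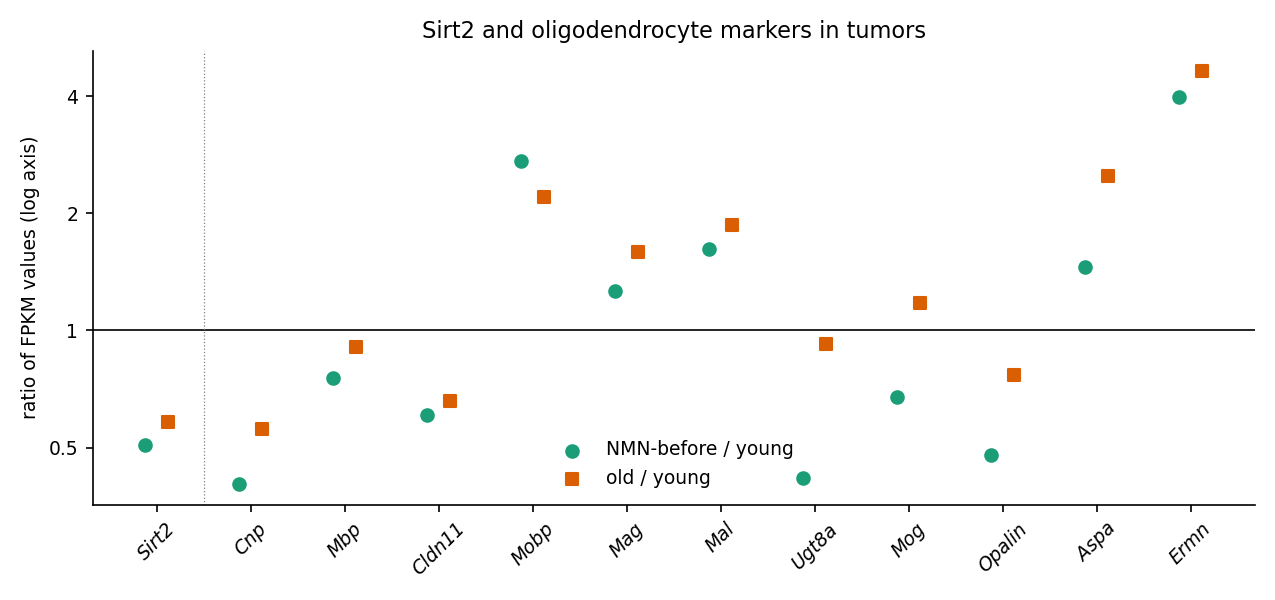
Ratios of FPKM (log axis) of Sirt2 and of 11 oligodendrocyte markers in the NMN-before and in the old tumor to the young tumor, with a line at 1. Sirt2 lies at 0.507 and 0.580 beside Cnp at 0.403 and 0.557, while Mobp, Mag, Mal, Aspa and Ermn lie above 1 in both.

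In GICs, Cnp was at 37.4, 26.1 and 28.1 FPKM in NMN-before, old and young cells, and each of the other 10 oligodendrocyte markers used was at most 1.26 FPKM. Of those 10, 4 were listed at 0 in NMN-before cells, 2 in old cells and 2 in young cells. Sirt2 was at 30.8 FPKM in NMN-before GICs, 44.7 FPKM in old GICs and 50.05 FPKM in young GICs. The NMN-before culture was the low library, with a ratio to old cells of 0.689 (0.504 to 0.939) and to young cells of 0.616 (0.460 to 0.818). The ratio of old to young cells was 0.893 (0.686 to 1.16), an interval that held 1. The ratio of Sirt2 to Cnp was 0.824, 1.71 and 1.78 in NMN-before, old and young GICs. The ratio in NMN-before GICs was thus close to that of the young tumor, and the ratios in old and young GICs were higher than in any tumor.

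Sirt6 and Sirt5 differed between GIC cultures in opposite directions. Sirt6 was at 9.84 FPKM in NMN-before GICs, 7.14 FPKM in old GICs and 2.93 FPKM in young GICs. The young culture was the low library. It held at least 17 fragments of Sirt6, against 45 in NMN-before and 32 in old cells, counted at the shortest transcript. The ratio of old to young cells was 2.44 (1.32 to 4.68), a log2 difference of 1.05, and 1.12% of the 12809 rows measured in GICs were as far or further higher. NMN-before to young gave 3.36 (1.89 to 6.27), a log2 difference of 1.47, with 1.15% of rows as far or further higher. NMN-before to old gave 1.38 (0.857 to 2.24), an interval that held 1.

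Sirt5 was at 3.81 FPKM in NMN-before GICs, 3.04 FPKM in old GICs and 6.44 FPKM in young GICs. Here the young culture was the high library, with 100 fragments, against 46 in NMN-before and 36 in old cells. The ratio of old to young cells was 0.471 (0.313 to 0.696), a log2 difference of -0.88, and 2.13% of rows were as far or further lower. NMN-before to young gave 0.592 (0.408 to 0.847) and -0.63, and NMN-before to old gave 1.26 (0.794 to 1.9995). The tables give the Sirt5 row the span of a single GENCODE transcript, 1367 bases long, which begins downstream of the annotated gene start as given above, so RNA of the other 10 transcripts may be counted in part or not at all.

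Within a library, the ratio of Sirt6 to Sirt5 does not depend on how the library was scaled. It is built from the Sirt6 and Sirt5 values given above, so in GICs it is not a result apart from them. It was 2.58 (1.67 to 3.98) in NMN-before GICs, 2.35 (1.41 to 3.89) in old GICs and 0.454 (0.254 to 0.764) in young GICs. In the NMN-before, old and young tumors it was 1.03 (0.753 to 1.40), 1.15 (0.784 to 1.65) and 1.21 (0.868 to 1.66). The young culture was the only one of the 6 libraries with a Sirt5 value above that of Sirt6. The intervals of the 3 tumors overlapped one another and each held 1, so which of Sirt6 and Sirt5 was higher was not settled there.

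**Figure D4:**
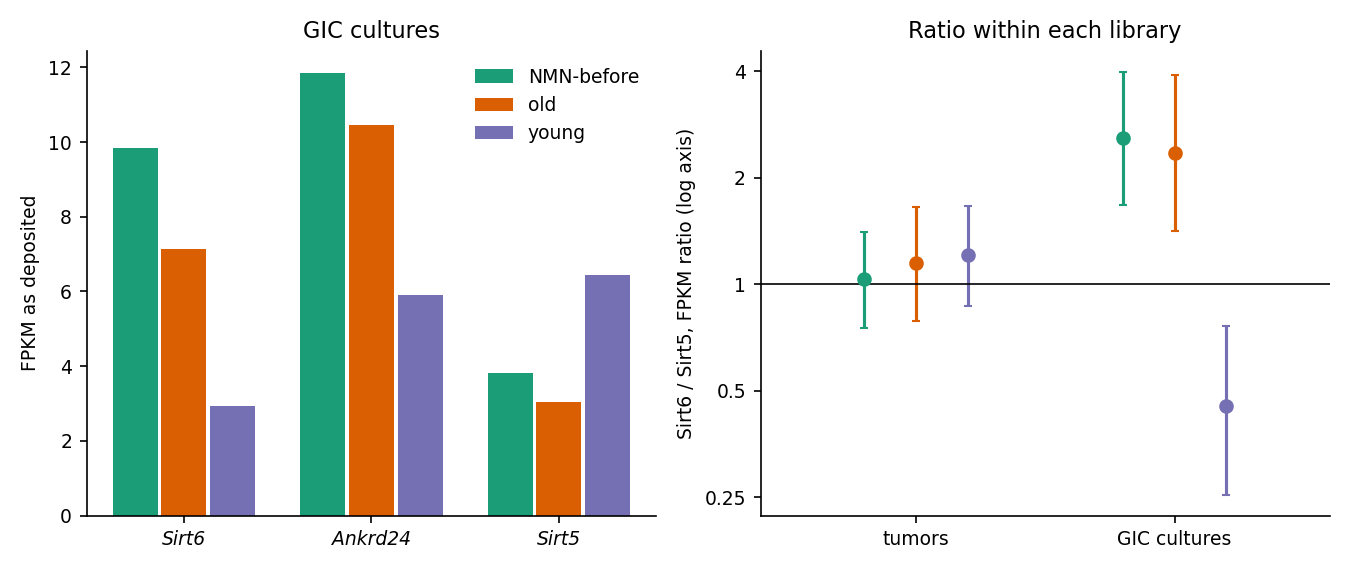
Left, FPKM of Sirt6, its neighbour Ankrd24 and Sirt5 in the GIC cultures; right, ratio of Sirt6 to Sirt5 FPKM within each tumor and GIC library (log axis) with bars for the 95% counting interval, each in the order NMN-before, old, young. The young GIC library lies below 1 at 0.454, the NMN-before and old GIC libraries above 2, and the tumors between 1.03 and 1.21.

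For Sirt1, Sirt3 and Sirt4, no GIC culture was 2-fold apart from another. Sirt1 was at 7.08, 11.9 and 10.04 FPKM in NMN-before, old and young GICs, with the NMN-before culture lowest. Its ratio of NMN-before to old cells was 0.594 (0.399 to 0.877), a log2 difference of -0.68 that 6.24% of rows reached in this direction. NMN-before to young gave 0.705 (0.476 to 1.03) and old to young 1.19 (0.850 to 1.65), and both intervals held 1. Sirt3 was at 11.3, 8.28 and 7.43 FPKM and Sirt4 at 10.9, 8.28 and 8.80 FPKM in NMN-before, old and young GICs. NMN-before cells were highest for both, but no interval of these ratios left out 1. The row of Mafg, Mir6936 and Sirt7 was nearly level, at 59.8, 62.9 and 60.7 FPKM.

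Sirt6 was the only sirtuin 2-fold apart between GIC cultures. It was the 1 of 6 that was 2-fold higher in old than in young cells, where 2.8% of all rows were 2-fold apart and 1.23% 2-fold higher, and again in NMN-before than in young cells, where 6.62% were apart and 3.58% higher. For NMN-before against old cells the count was 0 of 6 in either direction, where 5.57% of rows were 2-fold apart. No sirtuin was 2-fold lower in these comparisons, where 1.58% (old against young), 2.3% (NMN-before against old) and 3.04% (NMN-before against young) of all rows were. Sirt5, with a plain ratio of old to young cells of 0.471, fell short of 2-fold on the scale of FPKM plus 1. With a pseudocount of 0.1 its log2 difference was -1.06 and with values rescaled to TPM (FPKM brought to 1 common sum in every library) it was -1.02, which makes 2 of 6 sirtuins 2-fold apart. The median log2 difference of the 6 was 0.03 for old minus young (all rows 0.01), 0.31 for NMN-before minus old (all rows 0.00) and -0.08 for NMN-before minus young (all rows 0.00). Sirtuins whose interval left out 1 numbered 2 (Sirt5, Sirt6) for old against young, 2 (Sirt1, Sirt2) for NMN-before against old and 3 (Sirt2, Sirt5, Sirt6) for NMN-before against young. Over all such rows the interval left out 1 in 15.9%, 25.5% and 29.2% for these comparisons. The GIC cultures also differed in cell markers: oligodendrocyte precursor markers summed to 929, 420.5 and 344 FPKM, astrocyte markers to 393, 171 and 153 FPKM and cycling cell markers to 926, 910 and 704 FPKM in NMN-before, old and young cells. Slc1a3 (207, 123 and 101 FPKM) and Aldoc (170, 40.8 and 37.8 FPKM) carried most of the astrocyte sums. Of 6 measured astrocyte markers, 5 were higher and 1 lower in NMN-before than in young cells. The lower was Gfap, at 6.41, 3.21 and 11.4 FPKM. The precursor markers Sox10 and Gpr17 were at most 0.245 FPKM in any GIC culture, so these sums do not name a cell type. The part of these markers in the sirtuin values was not tested.

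**Figure D5:**
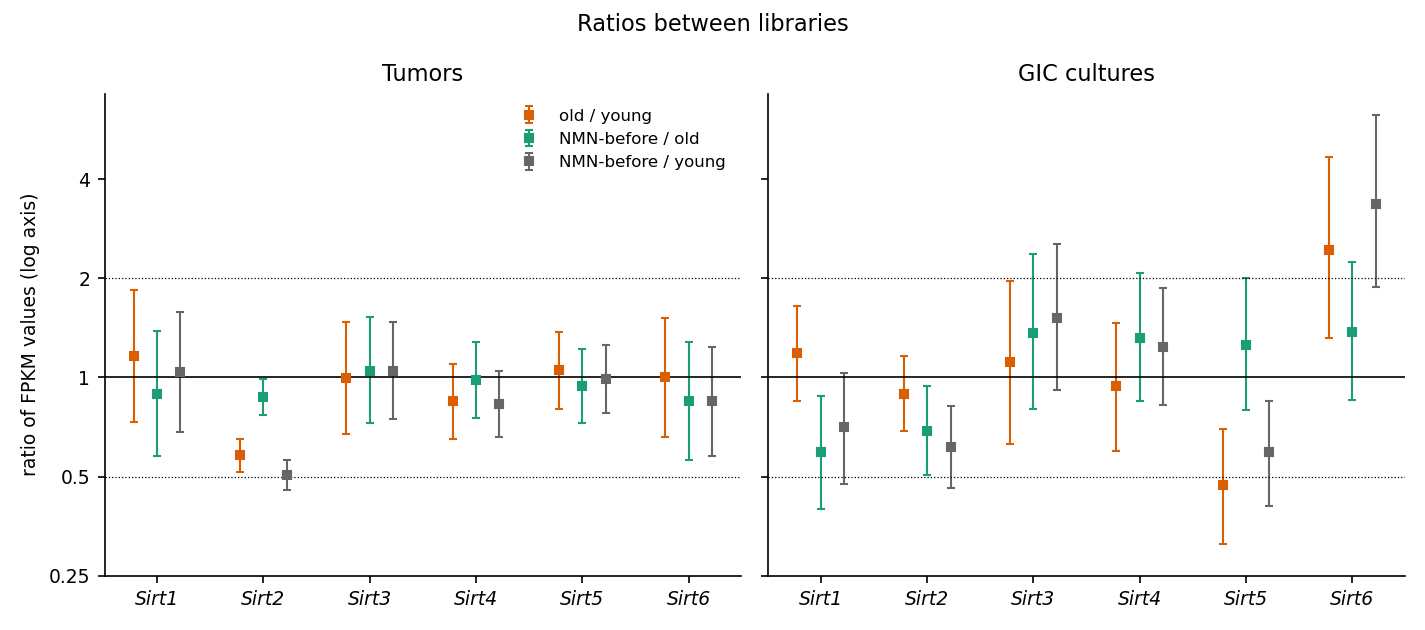
Ratios of FPKM (log axis) of each sirtuin for the comparisons of libraries within tumors and within GICs, with bars for the 95% counting interval, a line at 1 and dotted lines at 2 and 0.5. In tumors the Sirt2 intervals lie below 1; in GICs Sirt6 lies above 1 and Sirt5 below 1 for old against young and for NMN-before against young.

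Neighbouring genes were examined because the strand setting of the counting is not stated in the sources used here, so that reads of overlapping genes may be shared. Ankrd24 starts 743 bases from Sirt6 on the opposite strand, and the annotated spans of these genes do not overlap. It had the same order of GIC libraries as Sirt6, at 11.8, 10.5 and 5.91 FPKM in NMN-before, old and young cells. In the tumors Ankrd24 was at 8.63, 9.87 and 9.16 FPKM. Nfkbib, an inhibitor of NF-κB, lies antisense to Sirt2 and shares 778 bases with it. The deposited span of the Sirt2 row, chr7:28756174-28788661, begins before the annotated gene and takes in all of Nfkbib and Ccer2. What this adds to the Sirt2 value is not known. Nfkbib was at 36.9, 29.7 and 44.98 FPKM in the NMN-before, old and young tumors, and at 28.1, 46.1 and 36.0 FPKM in the matching GICs. Its levels were below those of Sirt2 in all 3 tumors and in NMN-before and young GICs, and slightly above it in old GICs. Sirt3 shares 342 bases with Psmd13, a proteasome subunit, and 707 bases with Ric8a, and the spans of Sirt7 and Mafg share 124 bases. The deposited span of the Sirt3 row, chr7:140807449-140898643, reaches beyond the annotated gene at both ends and takes in all of Psmd13 and Ric8a. The Gm16145 gene, antisense within Sirt1, was listed at 0 in all 6 libraries.

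The genes most like Sirt6 over the 6 libraries were Scand1, Cav1 and Acss2, by the Euclidean distance of log2 FPKM plus 1 centred within each table, among 8223 rows of protein-coding genes. Their distances were 0.239, 0.276 and 0.278. Acss2, the cytosolic and nuclear acetyl-CoA synthetase, was at 8.95, 5.36 and 2.76 FPKM in NMN-before, old and young GICs. Cav1, caveolin, was at 20.5, 12.7 and 7.23 FPKM and Scand1 at 17.9, 13.8 and 7.43 FPKM in the same cells. All 3 were lowest in young GICs and close to level in tumors, as Sirt6 was, which follows from choosing them by this distance. Named after the values were seen, the row closest to Sirt2 was Myc, the growth-promoting transcription factor, at a distance of 0.230. Myc was at 227, 217 and 383 FPKM in the NMN-before, old and young tumors, and at 246, 381 and 381 FPKM in the matching GICs. Likewise chosen after the values were seen, the row closest to Sirt5 was Tnik, a kinase of Wnt signalling, at a distance of 0.112 and at 27.4, 22.5 and 39.3 FPKM in NMN-before, old and young GICs.

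Genes that make or use NAD+ were described from fixed lists. Of 19 NAD+ synthesis genes, 10 were measured on a row of their own in each table. None was 2-fold apart in any of the 6 comparisons, where 2.6% to 6.62% of all rows were. At such shares, having none among so few genes sets no list apart. Nmnat2, at 2.44, 4.49 and 2.16 FPKM in NMN-before, old and young GICs, fell short of 2-fold on the scale of FPKM plus 1. Nampt, the enzyme that makes NMN from nicotinamide, was at 31.2, 25.7 and 26.5 FPKM in the NMN-before, old and young tumors, and at 27.4, 47.4 and 33.1 FPKM in the matching GICs. In GICs, 1 of the 10 was higher and 9 lower in NMN-before than in old cells, the median log2 difference being -0.37 (all rows 0.00), while 7 were higher and 3 lower in old than in young cells (median 0.23). Among 9 measured NAD+ consumers, none was 2-fold apart in tumors, where 2.6% to 3.77% of all rows were. Parp1, the DNA damage-sensing poly(ADP-ribose) polymerase, shares a row with Mir6904, which was at 57.1, 59.1 and 70.5 FPKM in the NMN-before, old and young tumors and at 94.99, 97.4 and 84.8 FPKM in the matching GICs. Cd38, an NAD+ glycohydrolase, was at 1.56, 2.15 and 1.91 FPKM in the tumors, and was at most 0.818 FPKM in GICs. Nnmt, which methylates nicotinamide, was at 0.782, 0.635 and 0.342 FPKM in the tumors and at 0.238, 0.575 and 0.536 FPKM in the matching GICs. In GICs 1 of 7 measured consumers was 2-fold lower in NMN-before than in old and in young cells, where 2.3% and 3.04% of all rows were. It was Parp9, at 1.05, 3.41 and 4.34 FPKM in NMN-before, old and young cells, named after its values were seen.

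Genes of proteins that regulate SIRT1 showed no 2-fold difference in either table. Of all rows, 2.6% to 3.77% were 2-fold apart in tumors and 2.8% to 6.62% in GICs. In tumors, 6 of 7 were lower in old than in young (median log2 difference -0.21, all rows -0.01), whereas in GICs all 6 measured were higher in old than in young (median 0.12, all rows 0.01). Ccar2 (DBC1), which binds and inhibits SIRT1, was at 19.3, 21.4 and 21.6 FPKM in the NMN-before, old and young tumors and at 19.3, 16.0 and 12.6 FPKM in the matching GICs. Rps19bp1 (AROS), described as an activator of SIRT1, was at 43.8, 34.5 and 42.6 FPKM in the tumors and at 53.1, 65.6 and 62.7 FPKM in the GICs.

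Among 13 genes of nuclear and cytosolic sirtuin substrates, none was 2-fold apart in tumors, where 2.6% to 3.77% of all rows were. In GICs Ppargc1a (PGC-1α), a coactivator of mitochondrial genes that SIRT1 deacetylates, was at 5.72, 2.28 and 1.62 FPKM in NMN-before, old and young cells. Its log2 difference was 1.03 against old cells, where 3.26% of all rows were 2-fold higher, and 1.36 against young cells, where 3.58% were. Trp53, which encodes p53, was at 70.0, 84.4 and 84.1 FPKM in NMN-before, old and young GICs. Foxo3, a forkhead factor, was at 7.50, 4.93 and 4.93 FPKM in the same cells.

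Substrates of the mitochondrial sirtuins had no member 2-fold apart, over 14 measured genes in tumors and 13 in GICs. Of all rows, 2.6% to 3.77% were 2-fold apart in tumors and 2.8% to 6.62% in GICs. Glud1, glutamate dehydrogenase, which SIRT4 restrains, was at 95.1, 161 and 115 FPKM in the NMN-before, old and young tumors and at 45.2, 73.4 and 69.3 FPKM in the matching GICs. Acadl, a fatty acid oxidation enzyme and SIRT3 substrate, was at 72.7, 49.1 and 36.9 FPKM in NMN-before, old and young GICs, and Idh2, a mitochondrial isocitrate dehydrogenase and SIRT3 substrate, was at 121, 116 and 74.7 FPKM. Sod2, the mitochondrial superoxide dismutase, was at 28.8, 34.7 and 28.6 FPKM in the same cells. The urea cycle substrates Otc and Cps1 were listed at 0 or at most 0.0591 FPKM in all 6 libraries.

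Glycolysis genes, which SIRT6 is known to repress in mouse cells, were measured in 14 of 14 in tumors and 13 of 14 in GICs. None was 2-fold apart in tumors, where 2.6% to 3.77% of all rows were. In tumors, 4 were higher and 10 lower in old than in young (median log2 difference -0.44, all rows -0.01). For NMN-before against old, 10 were higher and 4 lower (median 0.55, all rows 0.01). In GICs, 12 of 13 were higher in old than in young (median 0.30, all rows 0.01). For NMN-before against old, 5 were higher and 8 lower (median -0.20, all rows -0.002). For NMN-before against young, 10 were higher and 3 lower (median 0.28, all rows 0.001). Ldha, lactate dehydrogenase, was at 603, 361 and 637 FPKM in the NMN-before, old and young tumors, and at 599, 880.2 and 714 FPKM in the matching GICs. Aldoc, a brain aldolase also used here as an astrocyte marker, was at 170.4 FPKM in NMN-before GICs against 40.8 FPKM in old GICs, a log2 difference of 2.04, and 37.8 FPKM in young GICs (2.14). Pfkl, a phosphofructokinase, was at 47.6 FPKM in NMN-before GICs against 21.2 FPKM in young GICs, a log2 difference of 1.13. Of all rows, 3.26% were 2-fold higher in NMN-before than in old GICs and 3.58% in NMN-before than in young GICs.

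The RNA polymerase I and nucleolar genes linked to SIRT7 had no member 2-fold apart among 14 measured in either table. Of all rows, 2.6% to 3.77% were 2-fold apart in tumors and 2.8% to 6.62% in GICs. In tumors 1 was higher and 13 lower in old than in young (median log2 difference -0.16, all rows -0.01). In GICs 1 was higher and 13 lower in NMN-before than in old cells (median -0.39, all rows -0.002). For old against young cells, 11 were higher and 3 lower (median 0.16, all rows 0.01). Npm1, nucleophosmin of the nucleolus, was at 2545, 3943 and 3702 FPKM in NMN-before, old and young GICs.

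The zinc-dependent histone deacetylases, the other family that removes acetyl groups from lysines, also had none of 10 measured members 2-fold apart in any comparison. Of all rows, 2.6% to 6.62% were that far apart, depending on the comparison, so this count does not set the family apart. Their median log2 differences lay between -0.06 and 0.00 in tumors and between -0.15 and 0.11 in GICs. Hdac1 was at 58.1, 71.0 and 57.8 FPKM and Hdac2 at 126, 123 and 94.5 FPKM in NMN-before, old and young GICs.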

How the data were processed

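RNA levels of 6 libraries, 1 per group, were compared within tumors and within glioma-initiating cell cultures. Stranded, ribosome-depleted libraries of total RNA were read in pairs, per the labels' protocols. Cuffdiff, Cufflinks 2.2.1, STAR 2.5.4b, Trim Galore 0.6.2 and bcl2fastq 1.8.4 are named with the build GRCm38, per the submitters' processing notes. The authors deposited FPKM values (fragments per transcript length and library depth), tumors in 1 table and GICs in another, which were treated as normalized separately. The sources used here do not state the annotation, the normalization mode or the strand setting. Counting without strand would mix overlapping genes.

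Differences were taken of log2(FPKM + 1), a pseudocount of 1, for rows whose maximum in a table reached 1 FPKM (14335 rows in tumors, 12809 in GICs); such differences understate those of low genes. A difference of 2-fold is a rule of size. Depth, 9.68 to 18.8 M fragments (M for mega), was recovered from genes whose only transcript had between 1500 and 12000 bases, and the step was tested on simulated data. Fragments behind a value are FPKM times effective transcript length times depth. Effective length is the transcript length less the mean fragment length, plus 1 base. The mean fragment length, recovered along with depth, was between 120 and 160 bases. At the shortest transcript (for Sirt5 at the transcript of its row), the fragments gave exact Poisson intervals for levels and exact Clopper-Pearson intervals (95%) for ratios. Python 3.11.15, NumPy 2.4.6, SciPy 1.17.1, pandas 2.3.3 and Matplotlib 3.10.9 were used, with GENCODE M21 and RefSeq promoters.

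The members and lists were chosen with earlier results of these data known. Named were all sirtuins, Nampt, Nnmt, Cd38, Parp1, Cnp, Mobp and Mbp, and the 3 rows most like each sirtuin that was 2-fold apart. A rule also picked up to 4 list members per comparison that were 2-fold apart and reached 5 FPKM in either library. Not all of these were given with values above. Left out in tumors were Slc17a7, Snap25, Gad1, Gad2, Nefm, Nefl, P2ry12, Aqp4 and Sox10. Sox10 was at 7.30, 24.5 and 36.3 FPKM in the NMN-before, old and young tumors. Left out in GICs were Cspg4, Olig1 and Ptprz1. Other genes of the lists were named as examples after their values were seen. A marker of oligodendrocytes is not reported here and was left out of the list. Alternatives were pseudocounts of 0.1 and 0.5, median-of-ratios scaling, rescaling to TPM, other filters and protein-coding rows only.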

Additional observations from a re-analysis of the deposited data

Results flagged for a closer look

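Sirt6 was higher in NMN-before than in young GICs, with a log2 difference of 1.47 and a ratio of 3.36 (95% counting interval 1.89 to 6.27). In tumors its log2 difference for NMN-before minus young was -0.21, with a ratio of 0.847 (0.578 to 1.24), an interval that held 1. It is listed because the values have opposite signs, although the tumor value has no direction beyond counting error. With 1 library per group, the difference between GICs and tumors was not tested.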

How the results depend on the processing

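The number of sirtuins 2-fold apart kept its value in 34 of 36 alternatives. The exceptions were old against young GICs with a pseudocount of 0.1 and with rescaling to TPM, each giving 2 sirtuins in place of 1. Sirt5 then joined Sirt6, at log2 differences of -1.06 and -1.02 in place of the reported -0.88. Rescaling to TPM also moved the median of all rows in this comparison from 0.01 to -0.04. The ratio of Sirt6 to Sirt5 with 0.5 added to each value, and all 144 log2 differences of single sirtuins under other pseudocounts and scalings, moved by less than their counting intervals. Of these 144, 4 changed sign, none among the 104 with a reported size of 0.1 or more. The number of all rows 2-fold apart was less stable and moved by over 1.5 times in 20 of 42 alternatives. With a pseudocount of 0.1 it was 844 (old against young), 952 (NMN-before against old) and 1165 (NMN-before against young) in tumors, in place of 373, 446 and 540. In GICs it was 873, 1415 and 1544 in place of 359, 713 and 848. With a filter at 5 FPKM it was 158, 251 and 348 in tumors and 168, 448 and 539 in GICs. Protein-coding rows alone gave 138, 269 and 340 in tumors, and 158 and 473 in GICs for old against young and NMN-before against old. A pseudocount of 0.5 gave 819 for NMN-before against young tumors and 555 for old against young GICs, and TPM gave 562 for the GIC comparison. No paired analysis was possible because each group has 1 library and no test was run, and for the same reason no replicate could be left out. Depth limits Sirt6 in young GICs most, at 17 fragments by the shortest transcript.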
